A study of Mus musculus with 3 samples.

Results

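Some genes contain or touch the gene of a small structural RNA, and 8 of them were followed here through an RNA immunoprecipitation of the FTO protein. They are Ccdc107, Tex14, Ss18, Rock1, Cct6a, Zfp949, Parp16 and B930036N10Rik, taken by symbol from a table of 39179 genes. They were proposed because their counts were high in the Flag immunoprecipitates, so their own differences between antibodies are given as a description, with no test. All libraries came from white fat of Flag-FTO transgenic C57BL/6 mice aged 16 weeks and fasted overnight, so every group carries the transgene. The antibody was anti-Flag M2 in 2 libraries (Flag-IP 1 and Flag-IP 2) and IgG in 1 library (IgG-IP). The labels do not name the promoter of the transgene, and they leave unstated if each library had its own animal. The spread between the Flag-IP libraries may therefore be technical, and the IgG-IP library has no replicate. A pair of Flag-IP values is always Flag-IP 1 and then Flag-IP 2.

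Structural RNAs do their work as RNA inside stable particles. U1 and U5 belong to the spliceosome, U3 directs cleavage of the ribosomal RNA precursor, and the RNA of RNase MRP forms an enzyme that cuts the same precursor. Guide RNAs of the H/ACA class direct pseudouridylation. Many guide RNAs lie in introns of other genes and are cut out of them, whereas U1, U5 and RNase MRP genes have promoters of their own. When reads are counted by gene, a read from such an RNA can be given to the small gene, to the larger gene over it, or to both. FTO removes methyl groups from adenosines in RNA, and the pull-down with anti-Flag recovers the tagged protein with whatever RNA is attached.

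Of the 8 genes, 6 are protein-coding in the GENCODE M21 annotation of GRCm38, which is the build of all positions given here. Cct6a is listed there as a processed transcript but as protein-coding in RefSeq, and B930036N10Rik is an antisense noncoding gene, so the set is not made of protein genes alone. The 8 genes lie over 16 annotated structural RNA genes that have counts. The sequences of 4 are shown because they identify which RNA each larger gene shares its bases with. In Rmrp, the RNA of RNase MRP, capitals mark the 159 bases from the 5' end that fall inside the Ccdc107 span. In U1 (Rnu1a1) capitals mark ACTTACCTG, the stretch that pairs with 5' splice sites. In the guide RNA Snora15 they mark the ACA box near the 3' end. The U3 gene Rnu3b1 has no capitals. All were read from the GENCODE M21 transcripts, 5' to 3', as DNA letters.
Rmrp: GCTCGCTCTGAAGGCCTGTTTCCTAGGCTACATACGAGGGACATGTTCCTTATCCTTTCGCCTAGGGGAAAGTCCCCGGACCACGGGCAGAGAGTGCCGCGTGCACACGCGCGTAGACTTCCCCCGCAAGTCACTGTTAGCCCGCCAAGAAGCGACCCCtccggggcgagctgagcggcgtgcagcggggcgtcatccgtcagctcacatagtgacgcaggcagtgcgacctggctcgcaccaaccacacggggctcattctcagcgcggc
Rnu1a1: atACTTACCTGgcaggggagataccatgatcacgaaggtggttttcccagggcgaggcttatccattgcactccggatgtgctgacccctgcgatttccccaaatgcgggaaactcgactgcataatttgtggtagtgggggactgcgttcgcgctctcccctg
Rnu3b1: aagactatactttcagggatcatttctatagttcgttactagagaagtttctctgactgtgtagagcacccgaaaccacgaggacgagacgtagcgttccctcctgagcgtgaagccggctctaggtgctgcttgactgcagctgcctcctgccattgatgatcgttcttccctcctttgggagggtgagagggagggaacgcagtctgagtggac
Snora15: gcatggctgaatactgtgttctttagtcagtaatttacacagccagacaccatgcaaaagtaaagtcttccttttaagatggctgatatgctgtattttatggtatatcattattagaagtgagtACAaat

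Several of these RNAs are copies of each other, which ties the larger genes together. Rnu1a1 and Gm22068, both inside Tex14, have the same 164 bases. Gm24924 inside Ss18 and Gm26244 inside Rock1 differ from them by 1 base each. The U3 copies Rnu3b1 and Rnu3b3 inside Tex14 are identical, as are Rnu3b2 and Rnu3b4, and these pairs differ by 1 base. No source used here says how reads that match several copies were assigned. Counts of Tex14, Ss18 and Rock1 may therefore hold the same reads, and the 3 genes are not independent of each other.

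**Figure D1:**
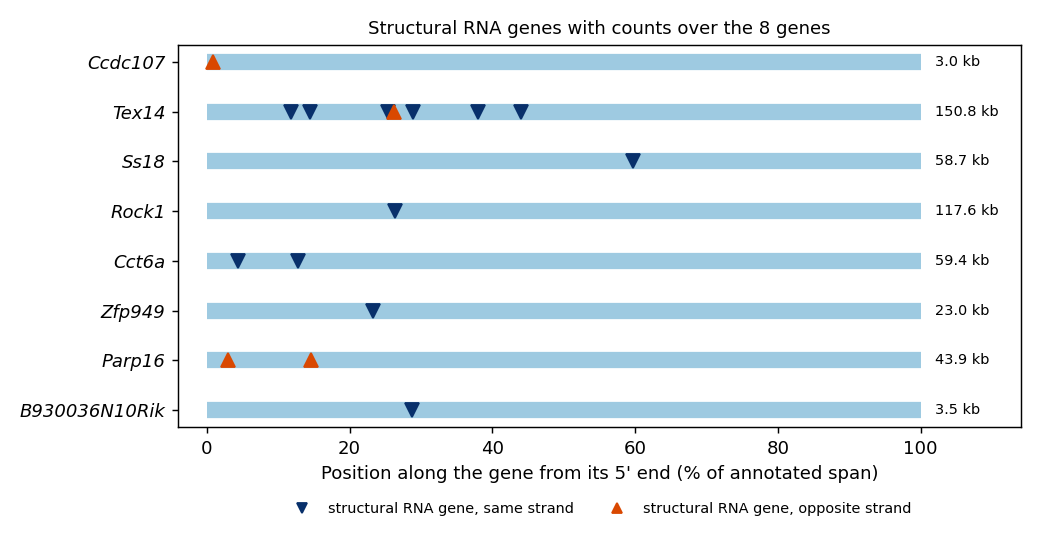
Each bar is 1 of the 8 genes drawn from its 5' end to its 3' end as a percent of its annotated span, with the span in kb at the right. Triangles are structural RNA genes with counts, pointing down for the same strand and up for the opposite strand. Tex14 carries 7 of the 16 triangles, and in Ccdc107 and Parp16 all of them lie on the opposite strand.

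The Flag-IP libraries held 98227791 and 95824218 counts and the IgG-IP library 74176962. The 8 genes took 0.0373% and 0.0272% of the Flag-IP counts and 0.00609% of the IgG-IP counts, and over tested genes the median was 24 and 26 counts in Flag-IP and 25 in IgG-IP. Of 17587 genes tested with edgeR's quasi-likelihood test, 5.58% were higher and 5.77% lower in Flag-IP at a Benjamini-Hochberg adjusted p under 0.05 (981 and 1015 genes), and with scaling to total counts, which moves the median gene by -0.52 on the log2 scale, 342 were higher and 3008 lower. Among the 8 genes 7 passed as higher and Parp16 did not, and because the genes were chosen for this difference nothing is read from that count. All 10 white adipocyte markers examined had counts, with sums of 3481 and 2361 in Flag-IP and 3045 in IgG-IP. Lpl gave most of them (3108 and 1996 in Flag-IP, 2666 in IgG-IP). Scaled for depth, 5 of the 10 lay above IgG-IP in both Flag-IP libraries, 3 lay below it in both, and for 2 the IgG-IP value lay between the Flag-IP values. The skeletal muscle markers Acta1, Myh4 and Ckm summed to 74 and 45 counts in Flag-IP and 18 in IgG-IP. Scaled for depth, all 3 were higher in both Flag-IP libraries, as the members were. The same held for 3 of 3 brown adipocyte, 2 of 2 lymphocyte and 2 of 2 erythroid markers. It also held for 2 of 3 endothelial and 1 of 2 macrophage markers, so it was not particular to muscle. Several of these markers had few counts. Their part in the members' values was not tested. In immunoprecipitates of bulk tissue, the number of cells of a type, their RNA content and what each antibody recovers cannot be told apart. The male germ cell markers Ddx4, Sycp3 and Dazl summed to 58 and 40 counts in Flag-IP and 113 in IgG-IP, so they were lower in both Flag-IP libraries, while the germ cell gene Tex14 was higher in them. Their part in that result was not tested.

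Ccdc107 (chromosome 4, 43492900 to 43495921, plus strand) encodes a coiled-coil protein and was the most counted of the 8 genes. It had 28612 and 19205 counts in the Flag-IP libraries, against 3426 in the IgG-IP library. Both Flag-IP libraries lay far above IgG-IP, and the edgeR log2 fold change was 2.95 ± 0.29 (SE). Ranked by counts among all genes in the table, Ccdc107 stood at place 42 and place 48 in Flag-IP and at place 82 in IgG-IP.

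Rmrp lies across the start of Ccdc107 on the opposite strand (chromosome 4, 43492788 to 43493058). Of its 271 bases 159 fall inside the Ccdc107 span and 124 inside Ccdc107 exons. A single noncoding transcript out of the 6 of Ccdc107 reaches over them, and the RefSeq gene begins at 43493340, past the whole of Rmrp. Rmrp had 35493 and 23240 counts in Flag-IP and 4259 in IgG-IP, more than Ccdc107 in every library. Ccdc107 counts per Rmrp count were 0.806 and 0.826 in Flag-IP and 0.804 in IgG-IP. The ratio was thus nearly the same with either antibody, although both genes differed several-fold between antibodies. Their log2 fold changes were 2.95 for Ccdc107 and 2.93 ± 0.29 (SE) for Rmrp. Flag-IP 1 held 1.49 times as many Ccdc107 counts as Flag-IP 2, and 1.53 times as many Rmrp counts. Because Rmrp had more counts than Ccdc107, taking its counts off would leave less than 0, and no remainder can be given for Ccdc107.

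**Figure D2:**
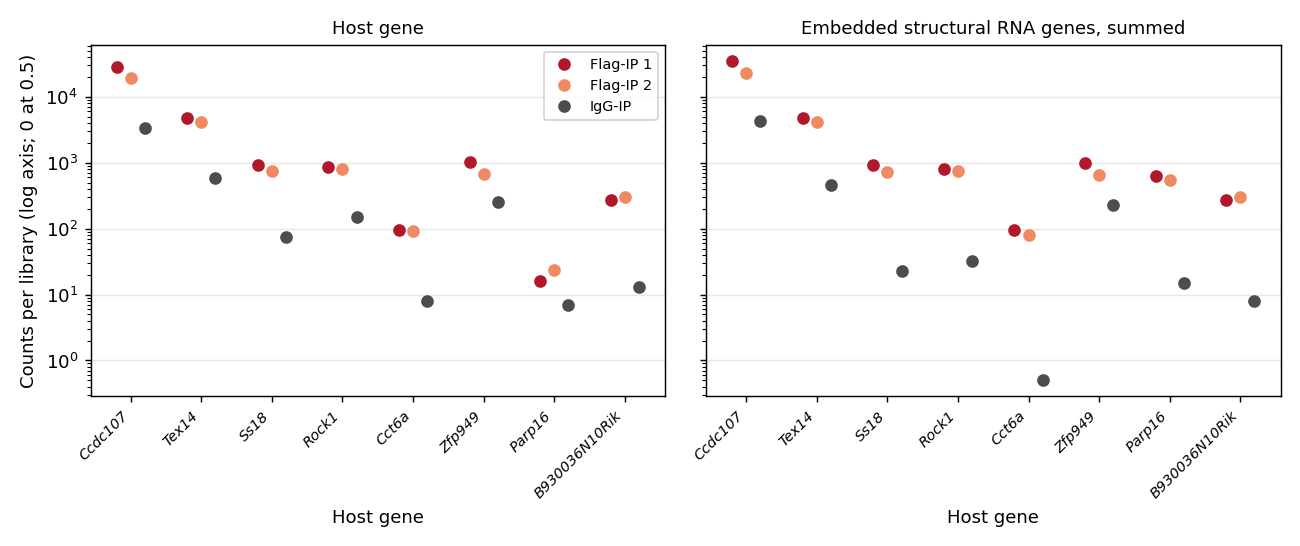
Counts per library on a log axis, not scaled for depth, for the 8 genes on the left and for the structural RNA genes over each of them, summed, on the right. For 6 of the 8 genes the Flag-IP points nearly coincide between the panels, Ccdc107 lies somewhat below Rmrp, and Parp16 lies far below its U5 genes.

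Tex14 (chromosome 11, 87405065 to 87555823) encodes a protein of the bridges between male germ cells. It had 4803 and 4216 counts in Flag-IP, against 584 in IgG-IP, and its log2 fold change was 3.09 ± 0.27 (SE). The gene spans 150.8 kb and contains 2 U1 copies and 4 U3 copies on its own strand, all within introns, and a further small nuclear RNA gene, Gm23137, with a single count in Flag-IP 1. The 7 RNA genes together had 4724 and 4102 counts in Flag-IP and 455 in IgG-IP. They equalled 98.4% and 97.3% of the Tex14 count in Flag-IP and 77.9% in IgG-IP. The 95% Wilson interval of the IgG-IP share was 74.4% to 81.1%, and such intervals cover counting error only.

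The U1 and U3 copies inside Tex14 differed in how strongly they favoured Flag-IP. The U1 pair summed to 1898 and 1423 counts in Flag-IP and 75 in IgG-IP. These equalled 39.5% and 33.8% of the Tex14 count in Flag-IP and 12.8% in IgG-IP. The 4 U3 copies summed to 2825 and 2679 counts in Flag-IP and 380 in IgG-IP, or 58.8% and 63.5% of the Tex14 count in Flag-IP and 65.1% in IgG-IP. Scaled for depth, U1 was higher than in IgG-IP by 4.85 in Flag-IP 1 and 4.32 in Flag-IP 2 on the log2 scale, and U3 by 3.09 and 2.89. The corresponding Tex14 values, 3.23 and 2.92, lay between those of the RNAs inside it. The U3 copies varied most in IgG-IP: Rnu3b1 had 697 and 636 counts in Flag-IP and 122 in IgG-IP, while Rnu3b2 had 674 and 711 in Flag-IP and 74 in IgG-IP. Copies with the same bases differed there too, since Rnu3b3, identical to Rnu3b1, had 90 counts and Rnu3b4, identical to Rnu3b2, had 94. How reads were assigned between copies is not given, so nothing is read from this variation.

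Ss18 (chromosome 18, 14624198 to 14682914) encodes a subunit of the BAF chromatin remodelling complex. It had 941 and 747 counts in Flag-IP, against 74 in IgG-IP (log2 fold change 3.65 ± 0.28, SE). The U1 copy Gm24924 in its intron had 915 and 712 counts in Flag-IP and 23 in IgG-IP. That equals 97.2% and 95.3% of the Ss18 count in the Flag-IP libraries and 31.1% in IgG-IP (95% Wilson interval 21.7% to 42.3%). What was left of Ss18 came to 26 and 35 counts in Flag-IP and 51 in IgG-IP. The gene as deposited was thus high in both Flag-IP libraries. If the Ss18 count holds the Gm24924 reads, the part outside them was lower in both Flag-IP libraries than in IgG-IP. If the genes were counted side by side, no such part is defined, and the counting rule is not given.

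Rock1 (chromosome 18, 10064401 to 10182045), the gene of a kinase that controls contraction of the cytoskeleton, showed the same arrangement. It had 865 and 814 counts in Flag-IP, against 150 in IgG-IP, with a log2 fold change of 2.62 ± 0.26 (SE). The intronic U1 copy Gm26244 had 808 and 750 counts in Flag-IP and 32 in IgG-IP, which is 93.4% and 92.1% of the Rock1 count in Flag-IP and 21.3% in IgG-IP (interval 15.5% to 28.6%). The remainder was 57 and 64 counts in Flag-IP and 118 in IgG-IP.

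Zfp949 (chromosome 9, 88548020 to 88571061) encodes a zinc finger protein, and its log2 fold change was the smallest of the 8 genes except for Parp16. It had 1037 and 670 counts in Flag-IP, against 257 in IgG-IP, and the log2 fold change was 1.88 ± 0.24 (SE). Gm26461, a miscellaneous RNA gene in its intron, had 1006 and 643 counts in Flag-IP and 229 in IgG-IP, or 97.0% and 96.0% of the Zfp949 count in Flag-IP and 89.1% in IgG-IP. Here the embedded RNA equalled most of the count with either antibody. The remainder was 31 and 27 counts in Flag-IP and 28 in IgG-IP, nearly level across the libraries. Zfp949 and Gm26461 also shared the difference between the Flag-IP libraries, with 1.55 and 1.56 times as many counts in Flag-IP 1 as in Flag-IP 2.

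**Figure D3:**
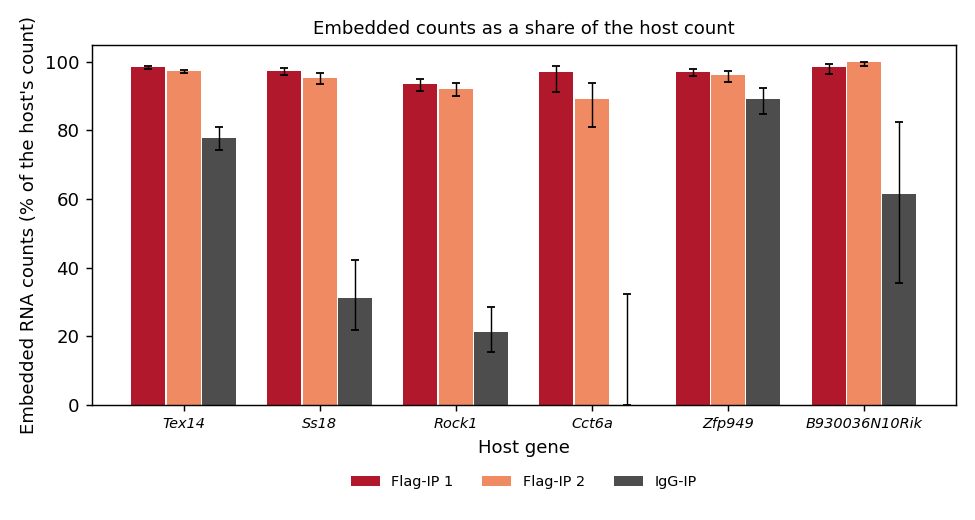
Counts of the structural RNA genes as a percent of the count of the gene over them, in each library, with 95% Wilson intervals as bars, for the 6 genes whose count is at least as large. The share is 89.0% or more in every Flag-IP bar and runs from 0% in Cct6a to 89.1% in Zfp949 in IgG-IP.

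Cct6a (chromosome 5, 129786998 to 129846371) encodes a subunit of the chaperonin that folds actin and tubulin. It had 97 and 91 counts in Flag-IP, against 8 in IgG-IP, and the log2 fold change was 3.67 ± 0.47 (SE). Snora15 (chromosome 5, 129794546 to 129794676, same strand) had 92 and 75 counts in Flag-IP and 0 in IgG-IP, and Gm23245, another snoRNA gene there, had 2 and 6 in Flag-IP and 0 in IgG-IP. Of the 131 bases of Snora15, 102 lie in an exon of a noncoding Cct6a transcript. The 2 RNAs together equalled 96.9% and 89.0% of the Cct6a count in Flag-IP and 0% in IgG-IP. They were at least 32.1-fold higher in Flag-IP than in IgG-IP when the IgG-IP library is set to the limit of 3 counts that a count of 0 allows. The remainder of Cct6a was 3 and 10 counts in Flag-IP and 8 in IgG-IP, too few to show a difference between the antibodies. Psph, a serine synthesis gene that overlaps the start of Cct6a on the opposite strand, had 39 and 40 counts in Flag-IP and 28 in IgG-IP.

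B930036N10Rik (chromosome 1, 171500568 to 171504111) is the noncoding gene of the set. It had 272 and 299 counts in Flag-IP, against 13 in IgG-IP, and its log2 fold change of 4.57 ± 0.36 (SE) was the largest of the 8. The U5 copy Gm24871 (chromosome 1, 171503048 to 171503163, same strand) lies wholly within its exons and had 268 and 299 counts in Flag-IP and 8 in IgG-IP. In Flag-IP 2 the U5 copy and the gene over it had the same count. The remainder was 4 and 0 counts in Flag-IP and 5 in IgG-IP.

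Parp16 (chromosome 9, 65195353 to 65239224), which encodes a mono-ADP-ribosyltransferase of the endoplasmic reticulum membrane, did not follow the RNAs annotated over it. It had 16 and 24 counts in Flag-IP, against 7 in IgG-IP (log2 fold change 1.62 ± 0.76, SE). With so few counts nothing is read from this difference. Rnu5g had 310 and 293 counts in Flag-IP and 5 in IgG-IP, and Gm25313 had 314 and 261 in Flag-IP and 10 in IgG-IP. These U5 genes lie inside the annotated Parp16 span on the opposite strand, with no base in a Parp16 exon. Parp16 counts per U5 count were 0.0256 and 0.0433 in Flag-IP and 0.467 in IgG-IP, so its count cannot contain the U5 counts. A single transcript out of the 5 of Parp16 reaches over the U5 genes, and the RefSeq gene starts at 65214652, past both. Parp16 had 0.667 times as many counts in Flag-IP 1 as in Flag-IP 2, against 1.13 times for the U5 genes. No source used here says which Parp16 span the submitters counted.

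Taking the embedded counts off left more than 3 counts in every library for Tex14, Ss18, Rock1 and Zfp949. The Tex14 remainder was 79 and 114 counts in Flag-IP and 129 in IgG-IP, and its log2 ratio of Flag-IP over IgG-IP was -0.30 (95% interval of counting error -0.62 to 0.05). For Ss18 the ratio was -0.62 (-1.17 to -0.04), for Rock1 -0.83 (-1.21 to -0.45) and for Zfp949 0.19 (-0.49 to 0.89). Scaled for depth, both Flag-IP libraries lay below IgG-IP in Tex14, Ss18 and Rock1 and above it in Zfp949, whose ratio turned to -0.34 with total-count scaling. The single IgG-IP library gives no measure of its own spread, so these intervals are too narrow for a comparison of antibodies. The genes were chosen as high in Flag-IP, and their RNAs favoured it more strongly than they did. Subtraction thus had to lower these ratios, and nothing is read from that direction. Per length, the remainder of Tex14 was 0.524 and 0.756 counts per kb of gene span in Flag-IP and 0.856 in IgG-IP. The RNA genes inside Tex14 had 3640 and 3160 counts per kb of their own length in Flag-IP and 351 in IgG-IP. For Rock1 the remainder was 0.485 and 0.544 counts per kb of span in Flag-IP and 1.00 in IgG-IP, while Gm26244 had 4930 and 4570 counts per kb in Flag-IP and 195 in IgG-IP.

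**Figure D4:**
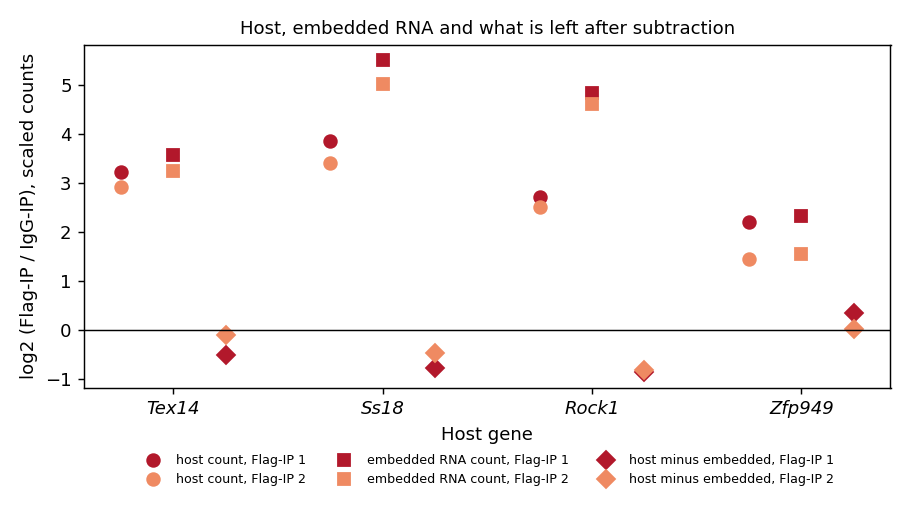
Log2 ratio of each Flag-IP library to IgG-IP, in counts scaled for depth, for the gene as deposited (circles), the structural RNA genes inside it (squares) and the gene after their counts were taken off (diamonds). The deposited values lie between 1.45 and 3.86, and the diamonds between -0.86 and 0.34. The choice of these genes largely fixes that the diamonds lie below the circles.

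The likeness of profiles was measured as the Euclidean distance between log2 CPM values, centred on each gene's mean over the 3 libraries, against 10248 other genes averaging 20 counts or more. Rmrp was the nearest gene to Ccdc107, at a distance of 0.03, followed by Gm15940 and Cd74. Tex14 was nearest to its own U3 copy Rnu3b3, followed by Gm26619 and Ttll8. Its other U3 copies stood at place 4 (Rnu3b4), 19 (Rnu3b2) and 34 (Rnu3b1). Its U1 copies stood at place 182 (Rnu1a1) and 258 (Gm22068). Rnu3b1 and Rnu3b3 have the same bases, so places this far apart can part identical copies. Gm26461 stood at place 5 for Zfp949, after Wscd1, Gm14024 and Ppp1r12c among others, and Gm24871 stood at place 13 for B930036N10Rik, whose nearest were Gm26244, Gm23238 and Gm24407. For the genes whose share of embedded counts differed most between antibodies the RNA stood further away, at place 120 for Gm24924 in Ss18, 444 for Snora15 in Cct6a and 1999 for Gm26244 in Rock1. Share and distance are computed from the same counts, so this relation was largely fixed and nothing is read from it. The nearest genes to Ss18 were Olfr1323, Gm23143 and Gm24305. Those to Rock1 were a U3 gene and 2 genes of the signal recognition particle family, and those to Cct6a were Gm11149, a U3 gene and Rnf114. With 3 libraries, many genes lie close together on this measure, and Parp16 has too few counts for it.

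Whether a larger gene's count could contain the smaller gene's was examined over the whole table. The 79 pairs taken had a structural RNA of at least 50 counts in a library. A larger gene with fewer counts cannot contain them all, but having as many does not show that it does. In 75 of the 79 pairs the larger gene had at least as many counts in every library. The exceptions were Ccdc107, Parp16 with both U5 genes, and Ccnb1ip1 over the RNase P RNA gene Rpph1. The share was 66 of 68 where the RNA had no base in an exon of the larger gene, and 48 of 51 on the opposite strand. Of all pairs, 45 come from 1 gene, Gm20388, which spans a cluster of 5S ribosomal RNA genes on the opposite strand. Without it 30 of 34 pairs held, and 3 of 6 on the opposite strand. Without the 8 genes as well, 19 of 20 held. The pairs are not independent, since these 20 hold only 16 structural RNA genes. Where a gene lies over several copies, each copy was set against its whole count, which makes holding easier. Ccnb1ip1 resembled Parp16, with 2 and 14 counts in Flag-IP and 6 in IgG-IP, beside 24024 and 16689 counts in Flag-IP and 2562 in IgG-IP for Rpph1.

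Beyond the 8 genes, 439 other protein-coding genes lie over a structural RNA gene with at least 1 count, and 412 of them were tested. They were chosen by annotation and not by direction. Of these, 37 (8.98%) were higher and 51 (12.4%) lower in Flag-IP by the edgeR test, beside 5.58% and 5.77% of all genes, and with total-count scaling 16 were higher and 131 lower. Their median log2 fold change was -0.08, against 0.03 for all tested genes. Among the 24 whose RNA had at least 20 counts in a library, edgeR called 14 higher and 0 lower, and the median was 1.36. None of the 24 was lower at an unadjusted p under 0.05, or in DESeq2, which called 3 higher and gave no adjusted p for 14. An RNA abundant in Flag-IP passes the limit of 20 counts more easily, so that limit is not independent of the antibody.

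Taking the embedded counts off left nothing of Ccnb1ip1 and Rpl10. Of the 22 others, edgeR called 13 higher as deposited and 2 higher and 0 lower after subtraction, when their median log2 fold change was 0.08, and at an unadjusted p under 0.05 Celf2 and Ipo7 were lower. Because the limit of 20 counts favours RNAs high in Flag-IP, subtraction had to lower most of these fold changes, and nothing is read from that direction. Eif4a2, a helicase of translation initiation that houses Snora81, had 148 and 70 counts in Flag-IP and 10 in IgG-IP, and after subtraction 12 and 5 in Flag-IP and 10 in IgG-IP. Rps3, a ribosomal protein gene over Snord15a and Snord15b, had 506 and 384 counts in Flag-IP and 55 in IgG-IP, and after subtraction 18 and 13 in Flag-IP and 10 in IgG-IP. Rcc1, Gtf2a1, Snx5, Atg16l1 and Kpna4 were called higher as deposited, with log2 fold changes of 1.96, 1.66, 1.96, 1.42 and 0.81, and after subtraction the values were 0.16, 0.58, 0.03, -0.12 and -0.55, with no call. Ipo7, a nuclear import factor, had a log2 fold change of 1.20 ± 0.31 (SE) as deposited and -1.40 ± 0.51 after subtraction (edgeR adjusted p = 0.00314 and 0.0546). The 2 genes called after subtraction were the chromatin remodeller Chd4 (1.12 ± 0.36, edgeR adjusted p = 0.0219) and Gm20388 (0.69 ± 0.24, edgeR adjusted p = 0.0422).

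**Figure D5:**
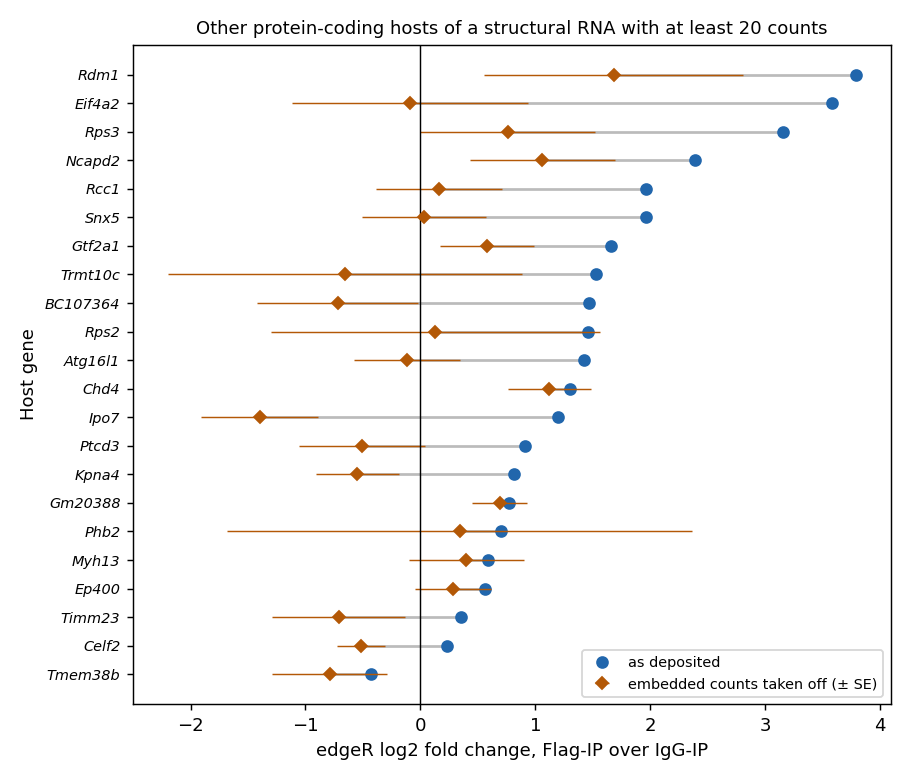
edgeR log2 fold change of Flag-IP over IgG-IP for 22 other protein-coding genes over a structural RNA with at least 20 counts, as deposited (circles) and after the embedded counts were taken off (diamonds, with bars of 1 SE). The diamonds lie between -1.40 and 1.68, and the choice of RNAs by their counts largely fixes that they lie left of the circles.

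A list of protein hosts of small nucleolar RNAs known from textbooks held 40 symbols, of which Gnb2l1 and Rack1 name the same gene. Of these, 29 were tested, 1 of which was Cct6a. Of the 28 others edgeR called 8 higher and 0 lower, beside 5.58% and 5.77% of all genes. None was lower at an unadjusted p under 0.05 or in DESeq2, which called 2 higher and gave no adjusted p for 25. The median of the 28 was 1.33, against 0.03 for all tested genes. Among the 8, Eif4a2, Rps3, Rpl10 and Rcc1 lie over a structural RNA with at least 20 counts, and none of these 4 was called after subtraction. Subtraction left nothing of Rpl10 and 25 counts or fewer in each library for Eif4a2, Rps3 and Rcc1. Nothing is therefore read from the loss of these calls. The other 4 lie over no structural RNA with at least 20 counts and were still called, so the subtraction was little test of them. They were the nucleolar protein gene Ncl (106 and 71 counts in Flag-IP, 30 in IgG-IP), the elongation factor gene Eef2 (44 and 33 in Flag-IP, 7 in IgG-IP), the ribosomal scaffold gene Gnb2l1 (13 and 16 in Flag-IP, 0 in IgG-IP) and the RNA helicase gene Ddx39b (42 and 61 in Flag-IP, 10 in IgG-IP).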

How the data were processed

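The authors deposited raw, unnormalized counts for each Ensembl gene, with a column for each library, matched here through the sample numbers that the labels state. Per the submitters' processing notes, CASAVA 1.7, Bowtie 0.12.2 and the build mm8 were used. The counting program, its annotation, its strand setting and its handling of reads with several matches are not given. A list of lipid genes was not used here.

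Genes were matched to GENCODE M21 (GRCm38) by Ensembl identifier (37607 of 39179), and no mm8 position was used. A structural RNA gene is one of class snRNA, snoRNA, scaRNA, rRNA, misc_RNA, ribozyme, scRNA or sRNA, and embedded means overlapping on either strand. RNAs carry GENCODE names, since the deposited table calls the Rnu3b genes U3 or ACEA_U3. The sequences of the other embedded RNAs are not reported here.

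edgeR 4.0.16 (R 4.3.3) fitted all genes kept by filterByExpr with a minimum count of 10. TMM factors were 0.840 and 0.936 for the Flag-IP libraries and 1.27 for IgG-IP. With 1 IgG-IP library the spread comes from the Flag-IP pair, and p-values measure only that spread. Each SE of an edgeR log2 fold change is its absolute value divided by the square root of the test's F statistic. For the subtraction, counts of all structural RNA genes over a gene were taken off it in each library, at the same scaling, and the edgeR fit was repeated. Alternatives were other scalings and filters, DESeq2 1.42.0, leaving out each Flag-IP library, and other definitions of an embedded RNA. The members and lists were chosen with earlier results of these data known. The text names the 8 members, the structural RNAs over them, overlapping genes with at least 50% of a member's mean count, the nearest profiles, and other hosts. Of the other hosts, the rule takes those with the most structural RNA counts and the largest changes, and Chd4, Rpl10 and single textbook genes were named after their values were seen.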

Additional observations from a re-analysis of the deposited data

How the results depend on the processing

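No paired analysis was possible because the antibody groups share only 1 replicate number. Leaving out a Flag-IP library leaves 1 library against 1, with no residual degrees of freedom, so counts of calls have no value there. The log2 fold changes of the 8 genes stayed above 0 in each setting that kept them, and the filter on mean count removed Parp16. All settings reuse the counts for which these genes were chosen, so nothing is read from that sign. With total-count scaling all log2 fold changes moved by a median of -0.52. Calls then were 342 higher and 3008 lower over all genes and 16 and 131 among the annotated hosts, whose median was -0.60, and the Zfp949 remainder turned to -0.34. DESeq2 called 127 and 124 over all genes and 8 and 12 among the hosts, and it gives many genes no adjusted p. The hosts' median was -0.14 with factors from genes under 10000 counts, -0.11 with no filter, -0.094 with a mean of at least 50 counts, between -0.12 and -0.11 without either Flag-IP library, and -0.15 with embedded counts taken off. With RNAs on the same strand only, fewer hosts remain, with 24 higher and 25 lower and a median of 0.015. With RNAs of at least 20 counts there were 14 and 0, with a median of 1.36. Taking off only Rnu1a1 left Tex14 at 2.89, since the counts of the other copies were not taken off.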

Other observations

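Celf2, the gene of a splicing regulator, lies over Gm26315, a miscellaneous RNA gene on its strand. It had 1260 and 961 counts in Flag-IP and 1041 in IgG-IP, and a log2 fold change of 0.23 ± 0.22 (SE). Gm26315 had 608 and 318 counts in Flag-IP and 24 in IgG-IP, which leaves Celf2 with 652 and 643 in Flag-IP and 1017 in IgG-IP. The log2 fold change after subtraction was -0.52 ± 0.21 (edgeR adjusted p = 0.0997). The 5 largest increases among called hosts with a mean of 50 counts or more also included Ncapd2, a condensin subunit gene (102 and 50 counts in Flag-IP, 16 in IgG-IP). After subtraction Ncapd2 had 24 and 22 counts in Flag-IP and 12 in IgG-IP. They included 2 genes whose embedded RNA had at most 3 counts in a library. These were the clathrin adaptor gene Ap2b1 (1954 and 1709 in Flag-IP, 326 in IgG-IP) and the fatty acid oxidation gene Acadl (220 and 173 in Flag-IP, 42 in IgG-IP). The 5 largest decreases were Hdac9 (44 and 45 in Flag-IP, 185 in IgG-IP), Chl1 (1043 and 1234 in Flag-IP, 3571 in IgG-IP), Cadps2 (462 and 455 in Flag-IP, 1294 in IgG-IP), Pcdh9 (339 and 378 in Flag-IP, 926 in IgG-IP) and Rfwd2 (47 and 65 in Flag-IP, 143 in IgG-IP). The RNAs over each of these 5 had under 10 counts in every library.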
